A study of Homo sapiens with 3 samples.

Results

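The HNRNP and SRSF genes encode the best known families of pre-mRNA splicing regulators, and they are described here in SK-Hep-1 cells with and without a knockdown of the long noncoding RNA LINC01089. Members were the protein-coding genes of the table whose symbol starts with HNRNP or with SRSF and a number. There were 34 of them, 22 HNRNP and 12 SRSF, among 22464 listed genes and 16858 protein-coding genes. The line SK-Hep-1 was established from a human adenocarcinoma of the liver and has endothelial traits. The shNC cells stably carried a negative control hairpin delivered by lentivirus, and the sh1089-1 and sh1089-2 cells carried different hairpins against LINC01089. Each group is 1 stably infected line sequenced as 1 library, so no value has a replicate check, and an effect of the knockdown and a peculiarity of 1 line cannot be told apart. LINC01089 itself was not analysed here.

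Heterogeneous nuclear ribonucleoproteins (hnRNPs) coat nascent transcripts and often block the use of nearby splice sites. SR proteins, named for a domain rich in serine and arginine, bind exonic enhancers and recruit the spliceosome, and many of their genes limit their own mRNA through poison exons that trigger nonsense-mediated decay. HNRNPM has been proposed as a protein partner of LINC01089 in liver cancer, which is why it is set among its family below.

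Levels are FPKM, fragment counts that the authors corrected for gene length and sequencing depth. The steps between FPKM values gave a library total of 10698480 reads in the control, of 9528312 with the first hairpin and of 8359832 with the second. Intervals are 95% Clopper-Pearson intervals from the reads behind each ratio. They cover counting error only, since reads carry no molecular identifiers. A mean of at least 1 FPKM over the 3 libraries was passed by 33 of the 34 members and by 10313 protein-coding genes. Shares and medians given below for protein-coding genes are over those past this filter. SRSF12 did not pass, on 3, 2 and 0 reads in shNC, sh1089-1 and sh1089-2. Of 8 listed hepatocyte marker genes SERPINA1 alone passed, with APOA1 and TTR listed at 0, while VIM, which encodes vimentin, had 922 to 1445 FPKM. Of 8 listed endothelial marker genes ENG alone passed, with 37.5 to 48.8 FPKM, and PECAM1 did not exceed 0.0121 FPKM.

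In the control cells the families spanned a wide range of levels. The HNRNP genes with the highest FPKM in shNC were HNRNPA1, a splicing repressor that shuttles to the cytoplasm (158), HNRNPK, which binds C-rich RNA (101), and HNRNPAB (97.6). The lowest were HNRNPA1L2 (1.64), HNRNPA1L3 (3.60) and HNRNPUL2 (4.83). Among the SRSF genes that passed, SRSF9 (49.5), SRSF2 (39.7) and SRSF7 (24.8) had the highest FPKM in shNC, and SRSF8 (4.97), SRSF10 (5.403) and SRSF1 (7.96) the lowest. The FPKM divide by a gene length, which the FPKM steps put at 22512 bp for HNRNPU and 2296 bp for HNRNPH2, so the order depends on the gene models. For SRSF1 that length was 5781 bp against 3340 bp of exons in GENCODE. Its gene model thus differs from GENCODE, and the effect on its FPKM and its place among the lowest was not tested. Together the HNRNP genes took 0.571% of all reads in shNC, 0.655% in sh1089-1 and 0.599% in sh1089-2. The SRSF genes took 0.1002%, 0.1302% and 0.1117%. Both shares were highest in sh1089-1 and lowest in shNC.

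**Figure D1:**
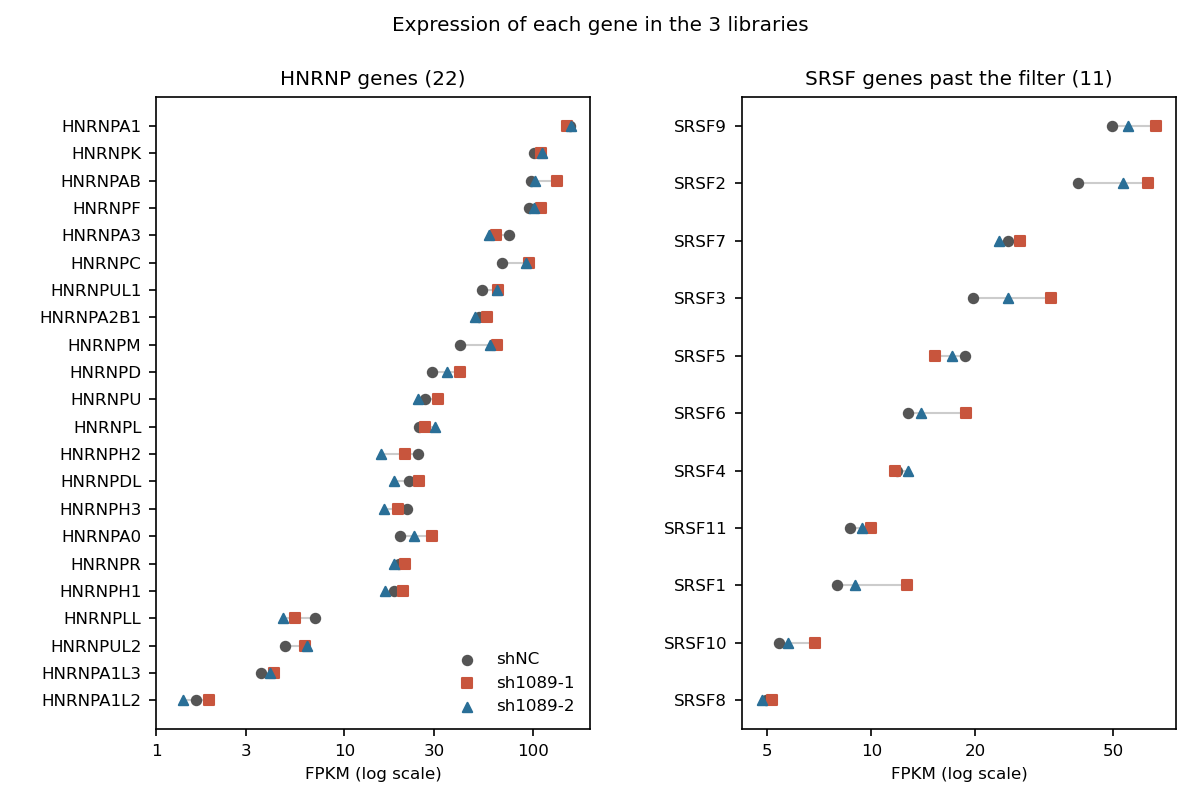
FPKM (x axis, log scale) of the 22 HNRNP genes and the 11 SRSF genes past the filter in shNC (grey circles), sh1089-1 (red squares) and sh1089-2 (blue triangles), 1 library each, ordered by shNC. HNRNPA1 lies between 151 and 159 FPKM in the 3 libraries, while HNRNPM, SRSF2 and SRSF3 lie lowest in shNC and highest in sh1089-1.

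The first comparison set sh1089-1 against shNC. HNRNPM and 3 SR protein genes, SRSF1, SRSF2 and SRSF3, stood at least 1.5-fold above the control, and no member stood 1.5-fold below it. Folds for such counts are on the log2(FPKM + 1) scale. The 4 higher members of 33 compare with 4.55% of 10313 protein-coding genes that were at least 1.5-fold higher, and the 0 lower members with 4.56% that were lower. The median difference in log2(FPKM + 1) was 0.15 over the 22 HNRNP genes and 0.29 over the 11 SRSF genes, against −0.03 over all protein-coding genes. Over genes with a mean of at least 5 FPKM these were 0.153, 0.358 and 0.03, in that order. Without members that have a named pseudogene the HNRNP and SRSF medians were 0.17 and 0.082, which turned the order of the families. Of the HNRNP genes 17 lay above shNC and 5 below, and of the SRSF genes 9 above and 2 below, where 46.5% of protein-coding genes lay above and 53.5% below.

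In sh1089-2 the medians of both families lay closer to the control. Single HNRNP genes did not all do so. Their differences ran from −0.617 to 0.52, against −0.297 to 0.637 in sh1089-1. No member was at least 1.5-fold higher, where 4.04% of protein-coding genes were, and HNRNPH2 was at least 1.5-fold lower, where 4.15% were. The median differences were 0.04 for the HNRNP genes and 0.11 for the SRSF genes, against −0.04 over all protein-coding genes. Over genes with a mean of at least 5 FPKM these were 0.038, 0.113 and −0.006, in that order. The scaling moved the HNRNP median to 0.11 after rescaling to TPM and to 0.09 with median of ratios scaling, and those of the SRSF genes to 0.19 and 0.16. Without members that have a named pseudogene the SRSF median was 0.03. Of the HNRNP genes 12 lay above shNC and 10 below, and of the SRSF genes 8 above and 3 below, where 45.0% of protein-coding genes lay above and 55.0% below.

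No member was 1.5-fold higher in both hairpin libraries, and none 1.5-fold lower, where 2.74% and 2.1% of protein-coding genes were. The comparisons share the shNC library. At a lower threshold, a difference of 0.32 in log2(FPKM + 1), HNRNPM, HNRNPC, SRSF2 and SRSF3 were higher in both, 4 of 33 members against 7.83% of protein-coding genes, and 0 were lower in both, against 9.06%. The difference of SRSF3 in sh1089-2 lay at that threshold. By sign alone, 18 of 33 members lay above shNC in both, 5 below in both and 10 on opposite sides. Of protein-coding genes 34.0% lay above and 42.4% below in both, and 2429 of 10313 lay on opposite sides. After rescaling to TPM, HNRNPM was 1.5-fold higher in both.

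**Figure D2:**
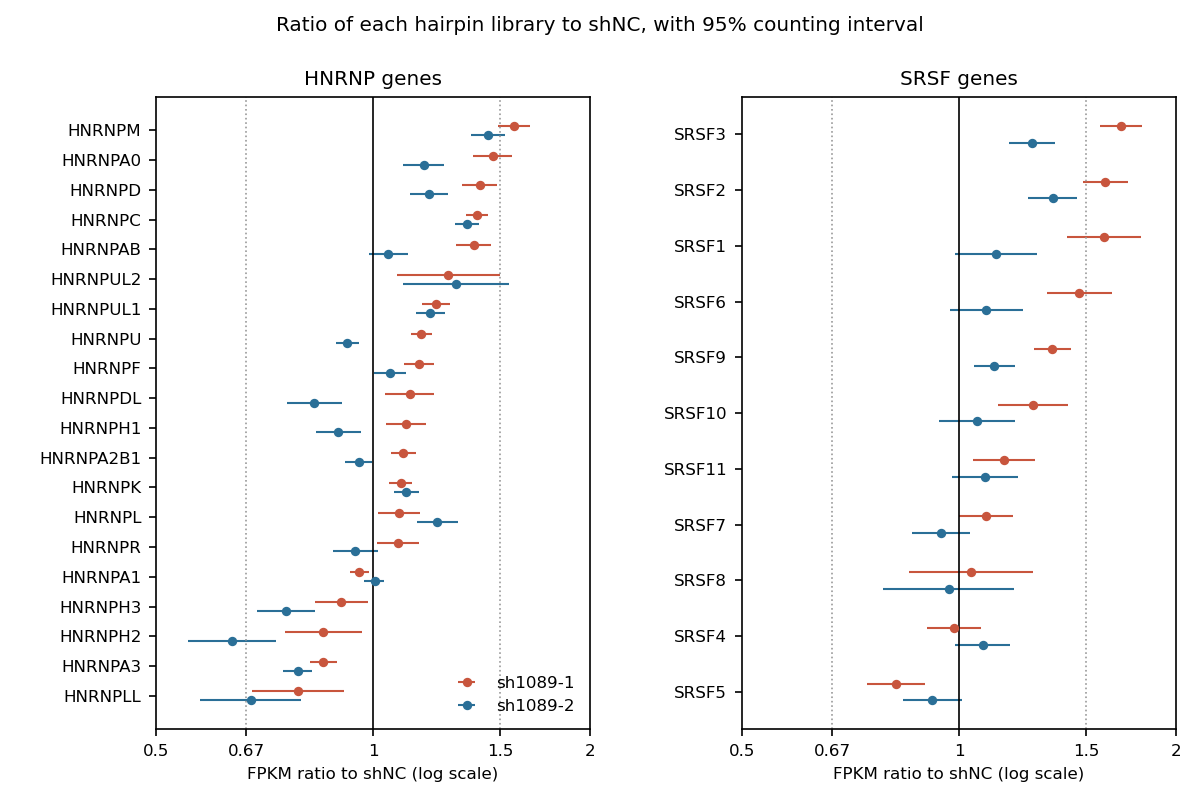
FPKM ratio to shNC (x axis, log scale) in sh1089-1 (red) and sh1089-2 (blue) for members with at least 100 reads in shNC; bars are 95% counting intervals and dotted lines mark 1.5-fold either way. HNRNPM and SRSF3 have the highest sh1089-1 ratios of their families, 1.57 and 1.68, and SRSF1 and SRSF6 have sh1089-2 intervals that include 1.

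HNRNPM (ENSG00000099783, chromosome 19, 8444767 to 8489114, plus strand of GRCh38) encodes a regulator of alternative splicing with a known part in epithelial and mesenchymal splice forms. Its level was 41.0 FPKM in the control, 64.3 with the first hairpin and 59.3 with the second, on 2463, 3440 and 2781 reads. Both hairpin libraries were thus above the control. The ratio to shNC was 1.57 (1.49 to 1.65) in sh1089-1 and 1.45 (1.37 to 1.53) in sh1089-2. These were the highest differences of the 22 HNRNP genes in either library. Of the protein-coding genes past the filter, 3.7% had a higher difference in sh1089-1 and 5.35% in sh1089-2. The 50 protein-coding genes nearest to it had median differences of −0.02 and 0.06. Isoforms and protein were not analysed here.

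SRSF3, the smallest SR protein and an adaptor for mRNA export, had levels of 19.7 (shNC), 33.1 (sh1089-1) and 24.9 FPKM (sh1089-2), the order also used below. Its ratio was 1.68 (1.57 to 1.79) in sh1089-1 and 1.26 (1.18 to 1.36) in sh1089-2. SRSF2, also known as SC35 and a marker of nuclear speckles, had 39.7, 63.3 and 53.5 FPKM, with ratios of 1.59 (1.48 to 1.71) and 1.35 (1.248 to 1.46). In both genes shNC was lowest and sh1089-1 highest. SRSF2 overlaps MFSD11 on the other strand, whose FPKM were 16.2, 24.2 and 19.8, in the same order. Whether the counting used the strand is not given in the sources used here, and its part in the SRSF2 values was not tested.

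SRSF1, the founding SR protein, had 7.96, 12.6 and 8.96 FPKM, on 492, 696 and 433 reads. Its ratio was 1.59 (1.41 to 1.79) in sh1089-1 and 1.13 (0.988 to 1.28) in sh1089-2. It stood above the control with the first hairpin, while with the second this depth did not allow a difference to be detected. HNRNPH2, which binds runs of G, was the member furthest below the control in sh1089-2, with 24.6, 21.0 and 15.7 FPKM. It was 1.17-fold lower (1.04 to 1.33) in sh1089-1 and 1.57-fold lower (1.36 to 1.81) in sh1089-2. A read-through gene of RPL36A and HNRNPH2 is annotated over it, so its reads may be split. In all, 4 members, SRSF1 among them, overlap another protein-coding gene on the same strand. On the other strand 7 overlap a listed one: HNRNPA2B1, HNRNPAB, HNRNPH3, HNRNPU, HNRNPUL1, SRSF2 and SRSF9. The part of these overlaps in the values was not tested.

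Promoter sequences from RefSeq (GRCh38.p14) matched 31 of the 34 members, all but HNRNPA1, HNRNPA1L3 and SRSF2. The 250 bases before the RefSeq start are shown for the members past 1.5-fold in a hairpin library that have an entry, chosen after their values were seen. Capitals mark motifs found on either strand, and motifs may overlap.
HNRNPM (chr19:8444725-8444974, plus strand): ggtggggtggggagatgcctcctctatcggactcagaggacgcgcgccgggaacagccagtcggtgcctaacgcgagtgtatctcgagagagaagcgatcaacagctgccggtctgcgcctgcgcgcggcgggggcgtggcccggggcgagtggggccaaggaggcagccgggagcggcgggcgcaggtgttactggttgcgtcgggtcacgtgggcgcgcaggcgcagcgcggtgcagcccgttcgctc
SRSF1 (chr17:58007247-58007496, minus strand): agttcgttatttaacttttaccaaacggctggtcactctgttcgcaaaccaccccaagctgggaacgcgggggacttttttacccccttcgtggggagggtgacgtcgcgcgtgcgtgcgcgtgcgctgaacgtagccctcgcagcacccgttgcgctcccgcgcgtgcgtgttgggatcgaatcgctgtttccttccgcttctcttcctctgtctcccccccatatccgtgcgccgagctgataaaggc
SRSF3 (chr6:36594112-36594361, plus strand): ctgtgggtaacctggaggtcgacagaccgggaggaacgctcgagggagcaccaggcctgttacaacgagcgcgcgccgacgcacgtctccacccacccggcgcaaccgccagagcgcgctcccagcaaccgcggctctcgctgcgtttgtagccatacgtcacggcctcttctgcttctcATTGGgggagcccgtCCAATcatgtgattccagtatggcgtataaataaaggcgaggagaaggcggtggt
HNRNPH2 (chrX:101407972-101408221, plus strand): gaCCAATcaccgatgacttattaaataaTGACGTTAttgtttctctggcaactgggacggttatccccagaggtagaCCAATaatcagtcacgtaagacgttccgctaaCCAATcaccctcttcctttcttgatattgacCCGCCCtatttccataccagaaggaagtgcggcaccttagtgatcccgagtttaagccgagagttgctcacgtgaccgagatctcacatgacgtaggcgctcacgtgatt

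The motifs searched were an E2F motif (TTTNNCGC), the NRF1 consensus, CCAAT, a cAMP response element (TGACGTNA), an ETS motif (CCGGAAG) and a GC box (GGGCGG). None of these was in the HNRNPM and SRSF1 windows, while SRSF3 held 2 CCAAT matches. The GENCODE genes start at 8444767 (HNRNPM), 58007346 (SRSF1) and 36594353 (SRSF3), so these windows lie in part inside the GENCODE gene. HNRNPH2 held 3 CCAAT matches, 1 cAMP response element and 1 GC box. For HNRNPH2 the bases after the RefSeq start were not found in a GENCODE transcript, unlike for the other 3. Over the 31 member promoters CCAAT was in 48.4%, the E2F motif in 22.6% and the NRF1 consensus in 3.2%, through SRSF9. In 8419 promoters of protein-coding genes past the filter those shares were 35.3%, 9.5% and 2.8%. A looser NRF1 pattern, searched first, was in 12.9% of member promoters (HNRNPM, SRSF1, SRSF9 and SRSF10) and 11.3% of the 8419, so the matches in HNRNPM and SRSF1 depend on the pattern. The cAMP response element was in 3.2% of member promoters and 4.5% of the 8419, the ETS motif in 16.1% and 17.2%, and the GC box in 64.5% and 70.4%. The matches are letters in a window and not measured sites.

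Closely related HNRNP genes lay on different sides of the control. In the A and B group, HNRNPA1 had 158, 151 and 159 FPKM. HNRNPA2B1, which binds and sorts many RNAs, had 52.0, 57.3 and 49.6 FPKM, and HNRNPA3 had 74.7, 63.7 and 58.7. HNRNPA0, a binder of AU-rich mRNA, had 19.82, 29.03 and 23.29 FPKM, which was 1.47-fold (1.38 to 1.56) and 1.18-fold (1.10 to 1.26) above shNC. HNRNPA1 thus stayed within 5% of the control in either library, HNRNPA3 lay below it in both, and HNRNPA0 lay above it in both. HNRNPA1 has many near-identical pseudogenes that could share its reads, so its values are uncertain. The HNRNPA1 relatives HNRNPA1L2 (1.64, 1.91 and 1.40 FPKM) and HNRNPA1L3 (3.60, 4.26 and 4.04 FPKM) rested on 16 to 78 reads a library, and their intervals against shNC included 1.

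HNRNPC, which binds U-tracts of nascent RNA, had 68.3, 95.2 and 92.2 FPKM, with ratios of 1.40 (1.35 to 1.45) and 1.35 (1.30 to 1.40). Only HNRNPM had a higher ratio in sh1089-2 among the HNRNP genes. HNRNPD, also known as AUF1 and tied to decay of AU-rich mRNA, had 29.2, 41.1 and 34.9 FPKM. Its neighbour on chromosome 4, HNRNPDL, had 22.1, 24.9 and 18.3 FPKM. HNRNPAB had 97.6, 135 and 103 FPKM. HNRNPD was above the control in both libraries, and HNRNPAB beyond counting error in sh1089-1 alone.

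In the group that binds G-runs, HNRNPF had 95.8, 111 and 101 FPKM, HNRNPH1 18.4, 20.4 and 16.4, and HNRNPH3 21.4, 19.3 and 16.2. HNRNPF lay above the control in both libraries, HNRNPH2 and HNRNPH3 below it in both, and HNRNPH1 above it in sh1089-1 and below it in sh1089-2. HNRNPL, which binds CA repeats, had 24.8, 26.9 and 30.4 FPKM, and its relative HNRNPLL had 6.97, 5.49 and 4.72. HNRNPLL was 1.27-fold lower (1.10 to 1.47) in sh1089-1 and 1.48-fold lower (1.26 to 1.74) in sh1089-2, while HNRNPL lay above the control in both. HNRNPLL lies on chromosome 2 (38561978 to 38603586), where its 50 nearest protein-coding genes had medians of −0.24 and −0.32, beside its own differences of −0.30 and −0.48. The part of that stretch in its values was not tested.

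HNRNPU, a nuclear scaffold protein, had 26.8, 31.3 and 24.7 FPKM. HNRNPUL1 had 53.4, 65.4 and 64.2 FPKM and HNRNPUL2 had 4.83, 6.14 and 6.30, and both were above shNC beyond counting error in either library. HNRNPK had 101, 110 and 112 FPKM, 1.09-fold (1.05 to 1.13) and 1.11-fold (1.07 to 1.16) above shNC. HNRNPR had 19.4, 21.0 and 18.4 FPKM. Counting error was exceeded in both libraries by 9 of 22 HNRNP genes above the control and 4 below it, where 16.1% and 18.4% of protein-coding genes did so. With median of ratios scaling 2 were below it. Counting intervals narrow as reads rise, and these shares were not matched to the read depth of the members.

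SRSF9, the closest relative of SRSF1, had 49.5, 66.7 and 55.5 FPKM, with ratios of 1.35 (1.27 to 1.43) and 1.12 (1.05 to 1.20). GATC, which SRSF9 overlaps on the other strand, had 30.4, 35.3 and 31.7 FPKM, in the same order. Its part in the SRSF9 values was not tested. SRSF7, which like SRSF3 serves as an export adaptor, had 24.8, 27.0 and 23.4 FPKM. Its ratios of 1.09 (0.999 to 1.19) and 0.946 (0.861 to 1.04) included 1, unlike those of SRSF3. SRSF7 lies on chromosome 2 (38743599 to 38751494), in the same stretch as HNRNPLL, and its 50 neighbours had medians of −0.25 and −0.32. SRSF8, an intron-poor relative of SRSF2, had 4.97, 5.16 and 4.81 FPKM, with both intervals including 1.

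Among SRSF4, SRSF5 and SRSF6, which share a long RS domain, SRSF6 had the highest ratio to shNC in sh1089-1 and SRSF5 the lowest. SRSF6 had 12.8, 18.8 and 14.0 FPKM, 1.47-fold (1.32 to 1.63) and 1.09-fold (0.971 to 1.23) the control. SRSF5 had 18.7, 15.3 and 17.1 FPKM, with ratios of 0.817 (0.744 to 0.897) and 0.919 (0.836 to 1.01). SRSF4 had 11.8, 11.7 and 12.8 FPKM, and both intervals included 1. SRSF10, a repressor when dephosphorylated, had 5.403, 6.842 and 5.727 FPKM, and SRSF11 had 8.65, 9.98 and 9.40. Both were above the control beyond counting error in sh1089-1 and not in sh1089-2. In both libraries that held for SRSF2, SRSF3 and SRSF9, 3 of 11, where 16.1% of protein-coding genes were above beyond counting error. Under either other scaling it held for 6 of 11. The share of protein-coding genes was again not matched for read depth.

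The hairpin lines were then compared directly. Most members were lower in sh1089-2 than in sh1089-1: 18 of 22 HNRNP genes and 9 of 11 SRSF genes, where 52.2% of protein-coding genes were. The other 6 were higher, where 47.8% were. The median differences of sh1089-2 from sh1089-1 were −0.18 and −0.22, against −0.01 over all protein-coding genes. No member was 1.5-fold lower or higher, where 1.01% and 1.22% of protein-coding genes were. At the lower threshold of 0.32 there were 7 of 33 lower, against 8.43%, and 0 were higher, against 7.97%. The 7 were SRSF1, HNRNPDL, SRSF6, HNRNPH2, SRSF3, HNRNPAB and HNRNPU. SRSF1 had a ratio of 0.709 (0.628 to 0.801) and HNRNPDL of 0.737 (0.675 to 0.805). HNRNPM had 0.921 (0.876 to 0.969). HNRNPL, HNRNPA1, SRSF4 and SRSF5 were higher in sh1089-2 beyond counting error, with ratios of 1.05 to 1.13.

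**Figure D3:**
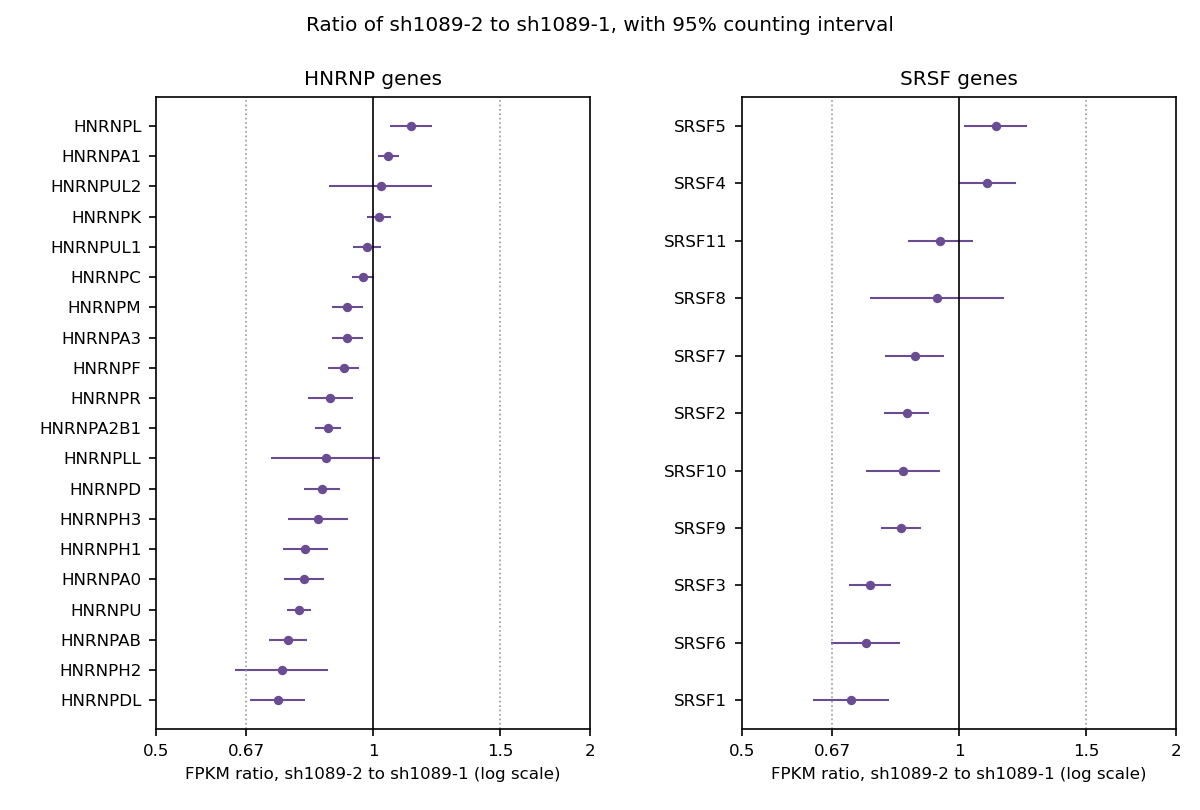
FPKM ratio of sh1089-2 to sh1089-1 (x axis, log scale) for members with at least 100 reads in shNC; bars are 95% counting intervals and dotted lines mark 1.5-fold. SRSF1 lies lowest of the SRSF genes at 0.709 and HNRNPDL lowest of the HNRNP genes at 0.737, and no member reaches 1.5-fold in either direction.

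Other splicing genes were read from lists chosen with earlier results of these data known. Of 12 genes for hnRNP proteins under other symbols, 11 passed the filter, 7 lay above shNC in both libraries and 1 below in both, where 34.0% and 42.4% of protein-coding genes did. PTBP1 (hnRNP I), a repressor that binds polypyrimidine tracts, had 60.9, 86.2 and 82.5 FPKM. KHSRP had 41.8, 61.6 and 52.1 FPKM, RALY 22.9, 32.1 and 28.8, and ELAVL1 (HuR) 14.9, 20.2 and 19.8. SYNCRIP (hnRNP Q) had 13.1, 16.5 and 12.8 FPKM, RBMX (hnRNP G) 27.6, 31.0 and 26.6, DAZAP1 19.9, 24.8 and 23.8, and TARDBP 9.592, 10.99 and 10.82. PCBP1 had 234, 229 and 218 FPKM, with ratios to shNC of 0.978 and 0.933. PCBP2 had 16.6, 16.3 and 17.5 FPKM, with ratios of 0.983 and 1.055. The list medians were 0.32 and 0.25.

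The spliceosome subunits were read by subcomplex. The U1 and Sm core list had 7 of 10 genes above shNC in both libraries and 0 below in both, where 34.0% and 42.4% of protein-coding genes did, with medians of 0.34 and 0.17. SNRPD3 had 2.39, 3.83 and 3.88 FPKM and SNRPA 35.8, 49.0 and 51.9 at the upper end, and SNRPE had 36.2, 43.1 and 31.9 and SNRPG 41.8, 44.3 and 38.8 at the lower. In the U2, SF3 and U2AF list 15 of 16 passed, with medians of 0.25 and 0.18. SF3B4 had 72.6, 116 and 104 FPKM and PUF60 43.4, 69.2 and 54.7, while SF3B1, the branch point factor, had 20.3, 16.5 and 16.4 and SNRPB2 had 23.8, 26 and 19.45. The list of 20 tri-snRNP and catalytic core genes had medians of 0.17 and 0.05. PRPF3 had 5.81, 8.38 and 8.45 FPKM and SNRNP40 14.3, 20.6 and 18.6, against 90.1, 86.9 and 85.1 for SNU13 and 5.71, 5.93 and 4.98 for CRNKL1.

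Genes for SR protein kinases and related kinases, phosphatase subunits and nuclear import receptors were read next. Not every gene of the list is tied to SR proteins alone. Of 15 genes past the filter among these 17 kinase, phosphatase and import genes, 9 lay below shNC in both libraries and 4 above. Of protein-coding genes 42.4% and 34.0% did. The list medians were −0.07 and −0.15. CLK1, a nuclear kinase of SR proteins, had 6.69, 4.89 and 5.28 FPKM, and DYRK1B had 3.60, 2.10 and 2.89. PPP1CA, a catalytic subunit of protein phosphatase 1, had 48.0, 72.6 and 63.0 FPKM and PPP1R10 had 10.7, 14.2 and 11.9. SRPK1, the main cytoplasmic SR kinase, had 16.3, 13.5 and 13.1 FPKM. The 21 SR-related genes had medians of 0.06 and −0.04, with TRA2B (6.21, 8.21 and 6.87 FPKM) and ACIN1 (16.2, 19.3 and 18.1) highest and LUC7L2 (3.39, 3.37 and 2.41) and PNN (12.68, 12.04 and 10.5) lowest.

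Of 34 other alternative splicing regulators 22 passed, with medians of 0.07 and 0.02. PTBP1 was counted here as well as among the hnRNP proteins under other symbols. SFPQ, a paraspeckle protein, was the only gene of this list 1.5-fold higher in both hairpin libraries, with 21.9, 47.5 and 36.3 FPKM. MBNL2 had 7.49, 4.75 and 8.19 FPKM and PTBP3, a relative of PTBP1, had 9.24, 6.80 and 7.03. The list of 15 genes of the exon junction complex and nonsense-mediated decay had medians of 0.03 and −0.10, with UPF1 at 15.7, 21.9 and 21.7 FPKM, MAGOHB at 3.21, 4.32 and 3.56 and SMG1 at 5.32, 3.33 and 3.89. Cell division genes stood further above the control than any of these lists. The 17 genes were above the control in each hairpin library, where 34.0% of protein-coding genes were, and 13 reached 1.5-fold in both, where 2.74% did, with medians of 0.92 and 0.86. PLK1 had 11.3, 33.8 and 34.0 FPKM and RRM2 21.4, 54.8 and 57.2 at the upper end, and TOP2A had 29.5, 40.4 and 40.3 and CDK1 11.6, 17.5 and 16.5 at the lower. Their part in the levels of the splicing genes was not tested.

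**Figure D4:**
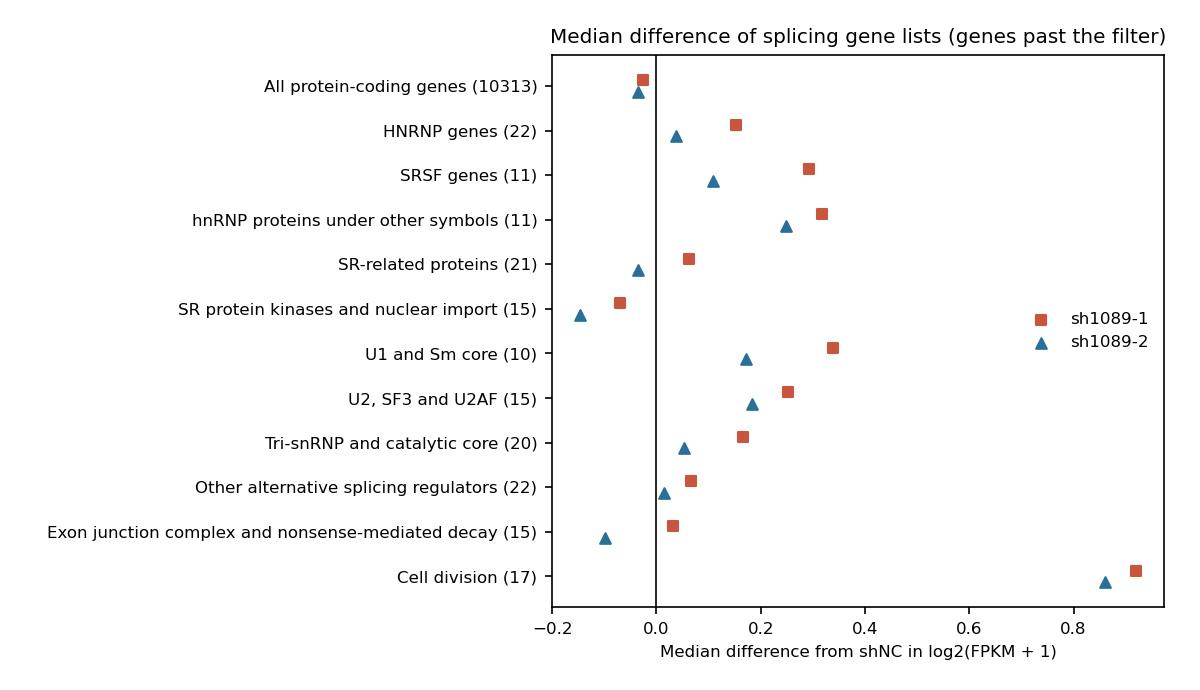
Median difference from shNC in log2(FPKM + 1) (x axis) in sh1089-1 (red squares) and sh1089-2 (blue triangles) over the genes past the filter, whose number stands in brackets. The SRSF genes lie at 0.29 and 0.11 and the HNRNP genes at 0.15 and 0.04, between all protein-coding genes (−0.03 and −0.04) and the cell division list (0.92 and 0.86).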

How the data were processed

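RNA from 3 SK-Hep-1 lines, 1 library each, was enriched for mRNA and made into strand-specific libraries, per the labels' protocols. The authors deposited FPKM per Ensembl gene. FastQC, StringTie and GRCh38 are listed without versions, per the submitters' processing notes. Not given in the sources used here are the aligner, the annotation release and the strand setting. With 1 library a group there is no replicate error, so no count model was fitted and no p-value was computed.

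Gene types and coordinates came from GENCODE release 29 (GRCh38), and symbols were found for 22375 of 22464 genes. Whole reads were recovered from the FPKM steps for 99.97% of 19219 genes above 0, by taking the gene length nearest to GENCODE at which all 3 values are whole. They served for library totals, shares, intervals and a filter. The recovery was tested on simulated data. Differences are in log2(FPKM + 1), where adding 1 makes differences of low genes smaller, among protein-coding genes averaging 1 FPKM or more. A count of 0 reads allows up to 0.28, 0.315 and 0.359 RPM in shNC, sh1089-1 and sh1089-2 (3 reads of the total).

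Named were HNRNPM, members past 1.5-fold in a hairpin library, the 3 highest and 3 lowest of each family, closely related members, and the 2 extreme genes of each list in each direction, with SRPK1 and the marker genes added after their values were seen. Some list genes that this rule selects are not reported here. The members and lists were chosen with earlier results of these data known. The mesenchymal marker list had 5 of 7 genes past the filter and the blood marker list 0 of 4 listed genes, from 6 chosen. Of the marker genes chosen, 8 of 12 for hepatocytes and 8 of 9 for endothelium were listed. Marker genes that were not listed have no value here. The NRF1 consensus replaced a looser pattern after that pattern's matches were seen. Python 3.11.15, pandas 2.3.3 and scipy 1.17.1 were used.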

Additional observations from a re-analysis of the deposited data

Results flagged for a closer look

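HNRNP genes that lay above shNC in one hairpin line and below it in the other, each beyond counting error, are given here. The difference between the hairpin lines has no replicate test. HNRNPDL had a ratio to shNC of 1.13 in sh1089-1 and 0.829 in sh1089-2, and HNRNPU of 1.17 and 0.921. HNRNPH1 had 1.11 and 0.895, and HNRNPA2B1 had 1.10 and 0.955. No SRSF gene met this condition, which 2.0% of protein-coding genes met. That share was not matched to the read depth of the members. The calls depend on the scaling. After rescaling to TPM the ratio in sh1089-2 was 1.00 (0.962 to 1.05) for HNRNPA2B1, 0.968 (0.932 to 1.01) for HNRNPU and 0.94 (0.875 to 1.01) for HNRNPH1. HNRNPDL stayed below the control, at 0.871 (0.797 to 0.951). With median of ratios scaling only HNRNPA2B1 of the 4 no longer met the condition, at 0.993 (0.952 to 1.04). Both scalings were applied here after the data were seen.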

How the results depend on the processing

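Of 127 values recomputed for 23 results under other settings, 115 stayed within the margin, 12 moved and 0 reversed. The margin was the counting interval for HNRNPM, the median reach to either side of the members' counting intervals for family medians, and 1.5 times for counts. Rescaling to TPM shifted the median of all protein-coding genes to −0.01 in sh1089-1 and 0.03 in sh1089-2 and put 1 HNRNP gene 1.5-fold higher in both hairpin libraries, from 0. At the lower threshold of 0.32 (log2) 2 HNRNP and 2 SRSF genes were higher in both, from 0. With no filter on low values 2 SRSF genes lay below shNC in both, from 1, through SRSF12. Without members that have a named pseudogene, 4 HNRNP genes lay above and 2 below shNC in both, from 11 and 4. Left past the filter were HNRNPA0, HNRNPA1L2, HNRNPA1L3, HNRNPA2B1, HNRNPH2, HNRNPLL, HNRNPUL1 and HNRNPUL2. HNRNPA1L2 and HNRNPA1L3 are themselves relatives of HNRNPA1, so this set may still hold shared reads. GENCODE gives HNRNPA1L3 the symbol of an HNRNPA1 pseudogene but types it as protein-coding. The SRSF genes above shNC in both were then 2, from 7, out of SRSF2, SRSF4, SRSF5, SRSF7, SRSF8 and SRSF11. The SRSF median in sh1089-1 was 0.082, from 0.29. These sets hold fewer genes, so their counts cannot be compared directly with the main counts. The pseudocount of 0.1, the filters of 5 FPKM and of 100 reads and the 2-fold threshold moved none of these results past the margin. For counts beyond counting error in both libraries, scalings chosen after seeing the data took the SRSF genes above shNC from 3 to 6 with TPM or median of ratios, the HNRNP genes below from 4 to 2 with median of ratios, and those on opposite sides from 4 to 1 with TPM. No paired analysis was possible because each group holds 1 library.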

Other observations

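The table also lists 45 pseudogenes named after HNRNP and SRSF genes, 23 of them after HNRNPA1, of which 6 had a mean of at least 1 FPKM and 16 were listed at 0. In shNC, sh1089-1 and sh1089-2 order, HNRNPA1P7 had 11.2, 13.6 and 18.8 FPKM, on 115, 125 and 151 reads, while HNRNPA1 itself stayed within 5% of the control. HNRNPCP2 had 14.9, 17.0 and 17.4 FPKM. HNRNPKP4 had 5.33, 6.97 and 3.71 FPKM, on 79, 92 and 43 reads. Whether reads passed between parent genes and copies was not tested.

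In GENCODE 29 all 11 SRSF genes past the filter have at least 1 transcript annotated as subject to nonsense-mediated decay, against 13 of 22 HNRNP genes (59.1%) and 43.2% of protein-coding genes past the filter. SRSF7 has 6 such transcripts of 12 and HNRNPU has 9 of 31. HNRNPM has 1 of 17. FPKM per gene sum over coding and decay forms, so the balance between them in these libraries was not analysed here.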
